A study of Mus musculus with 8 samples.

Results

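Mast cells were examined in malignant peripheral nerve sheath tumors of mice, which arise from Schwann lineage cells, through 9 genes taken by symbol from a table of 20943 genes. Of these, 7 are genes that mast cells are known for: the protease genes Cma1, Mcpt4, Cpa3 and Tpsb2, the IgE receptor chains Fcer1a and Ms4a2, and the histamine-forming enzyme Hdc. The other 2 are Kit, the receptor that mast cells need, and Kitl, which encodes its ligand, stem cell factor. All 9 symbols were found, none was at 0 in any tumor, and all 9 were tested. RNA of 8 whole tumors was measured by poly-A sequencing. The 5 PRC2 wildtype tumors came from Plp-CreERT mice with the alleles Nf1(f/f) and Cdkn2a(f/f), and the 3 PRC2 loss tumors from mice that carried Eed(f/f) as well. Tamoxifen, 0.4 mg on day 0 to 3 after birth, was given to both groups. Deletion of Nf1 and Cdkn2a is thus shared, and the labelled difference is Eed, a core subunit of the histone H3 lysine 27 methylating complex PRC2. The driver is active in Schwann lineage cells, so leukocytes of these tumors are not its intended target.

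The 8 tumors carry only 5 animal numbers. Wildtype tumors 1 and 2 share number 8, wildtype tumors 3 and 4 share number 9, and PRC2 loss tumors 2 and 3 share number 7. Whether a shared number is a shared mouse is not said in the labels; if so, p-values that treat all 8 tumors as separate are too small. PRC2 loss tumor 1 was from a right paraspinal nerve and PRC2 loss tumors 2 and 3 were from the left and right sciatic nerves. No site is named for the wildtype tumors, so site and PRC2 status cannot be told apart. Values are quantile-normalized log2 gene counts, sequencing depth is unknown, and the median of every tumor lay between 8.46 and 8.47. Between 2686 and 3372 genes were at 0 in a wildtype tumor, against 1822 to 2113 in a PRC2 loss tumor. Eed stood at 10.17 to 10.33 in the wildtype tumors and at 8.76 to 8.96 in the PRC2 loss tumors (log2 difference -1.36, SE 0.115, adjusted p = 0.000210 by limma), and which of its exons the reads covered was not tested.

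Mast cells leave the bone marrow as progenitors and mature in tissue, where stem cell factor binding to Kit keeps them alive. Mature cells store histamine and proteases in granules and release them when antigen crosslinks IgE on the high-affinity receptor, whose alpha chain binds IgE and whose beta chain amplifies the signal. In rodents, connective tissue mast cells are rich in Cma1, Mcpt4, Cpa3 and tryptase, whereas mucosal mast cells express Mcpt1 and Mcpt2. Mast cells are resident in peripheral nerve and have long been studied in neurofibromas, in which Schwann cells lacking Nf1 secrete stem cell factor.

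Promoter windows from RefSeq on build GRCm38.p6, running from 250 bases before to 50 bases after the start, were held for 8 of the 9 genes. The letters GATAA, read on either strand and a core match for GATA factors such as the mast cell regulator Gata2, were present in 5 of the 6 windows of mast cell genes, and in 25.4% of all 32851 windows. They lay 194 bases before the start in Cma1, 102 in Mcpt4, 45 in Cpa3 and 92 in Fcer1a, and at 224, 37 and 10 bases in Ms4a2. The letters were not in the window of Hdc, Kit or Kitl. The Hdc window, chr2:126618629-126618928, lay wholly inside the gene as given by GENCODE, which starts upstream at 126619299. Bases before that start were not searched. The 6 mast cell windows held 1 to 3 CG pairs each, a count of 3 or fewer being found in 31.4% of all windows, whereas the 2 windows of Kit, from 2 RefSeq starts, held 20 and 21 and that of Kitl 28, a count of 20 or more being found in 26.5%. The motif was picked with the genes known, and a match describes letters, not binding. The 250 bases before the RefSeq starts of Cpa3, Cma1 and Ms4a2 are shown because these genes gave 3 different placements of the motif, in capitals as GATAA or, on the other strand, TTATC. For contrast, the first 179 bases of the first Kit window are shown, with the 10 CG pairs there in capitals; they end just before the gene start given by GENCODE, which lies upstream of the RefSeq start.
Cpa3, chr3:20242182-20242431, minus strand: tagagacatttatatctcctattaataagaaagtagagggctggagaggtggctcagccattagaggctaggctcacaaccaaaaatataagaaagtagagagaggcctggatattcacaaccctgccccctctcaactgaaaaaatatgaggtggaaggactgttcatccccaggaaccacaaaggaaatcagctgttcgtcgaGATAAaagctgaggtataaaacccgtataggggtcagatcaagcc
Cma1, chr14:55944676-55944925, minus strand: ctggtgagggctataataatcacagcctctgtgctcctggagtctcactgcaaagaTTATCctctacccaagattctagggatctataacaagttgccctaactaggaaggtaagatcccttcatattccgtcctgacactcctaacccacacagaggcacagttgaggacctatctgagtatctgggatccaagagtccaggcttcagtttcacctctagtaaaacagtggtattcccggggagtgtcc
Ms4a2, chr19:11623720-11623969, minus strand: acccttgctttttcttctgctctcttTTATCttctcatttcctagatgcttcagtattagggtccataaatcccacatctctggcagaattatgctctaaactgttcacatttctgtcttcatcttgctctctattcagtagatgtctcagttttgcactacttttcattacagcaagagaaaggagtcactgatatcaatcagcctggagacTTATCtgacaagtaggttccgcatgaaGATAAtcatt
Kit, chr5:75574737-75574915, plus strand: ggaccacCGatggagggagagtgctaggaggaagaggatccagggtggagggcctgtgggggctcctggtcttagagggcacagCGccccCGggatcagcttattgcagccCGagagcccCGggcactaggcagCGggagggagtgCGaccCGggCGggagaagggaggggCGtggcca

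All 9 genes were higher in PRC2 loss tumors, and in each of them every PRC2 loss tumor lay above every wildtype tumor. The 7 mast cell genes differed by 3.33 to 4.24 on the log2 scale, which is 10.1-fold to 18.9-fold. Kit differed 2.76-fold and Kitl 1.80-fold. All 9 passed the threshold of 0.05 on the Benjamini-Hochberg adjusted p of limma, fitted across 20807 genes, where 16.04% of all genes passed in this direction and 19.64% in the other. Over all genes, 16.91% showed the same separation of the groups with PRC2 loss higher, and 21.43% with PRC2 loss lower. The median difference was 3.76 for the 7 mast cell genes and -0.12 for all genes. In bulk tissue, more mast cells and more of these transcripts per mast cell cannot be told apart.

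**Figure D1:**
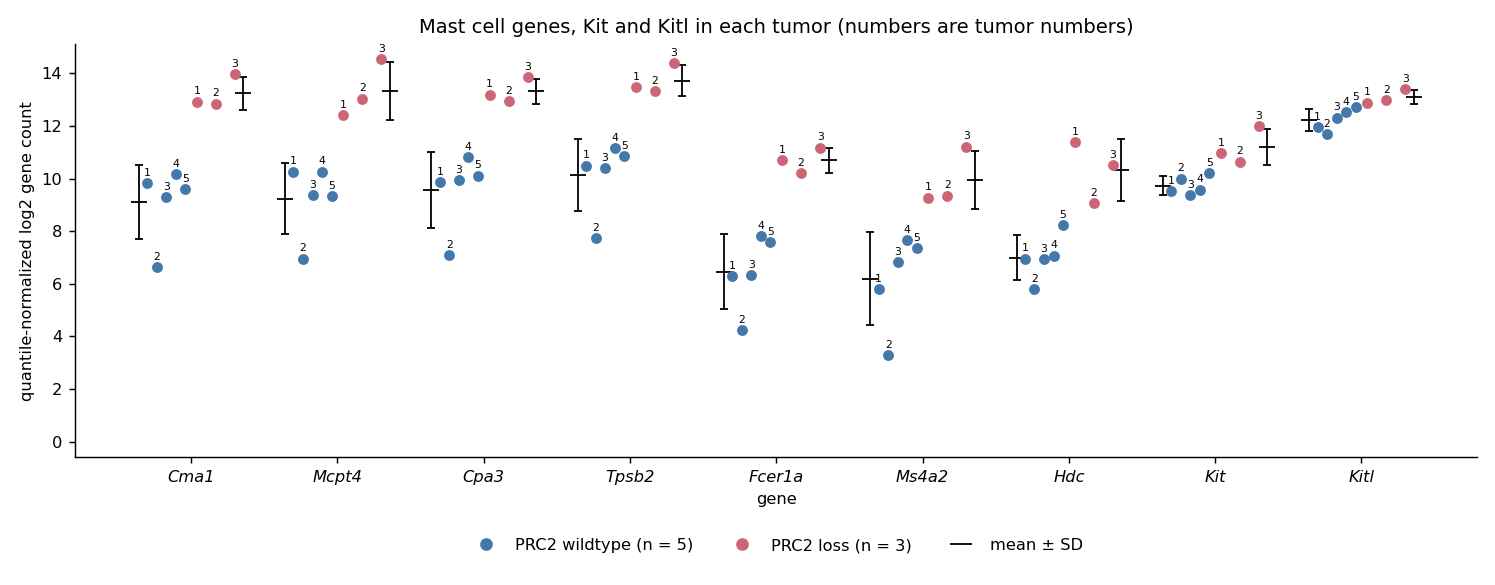
Quantile-normalized log2 gene count (y axis) of the 9 genes (x axis) in each tumor; points are tumors, numbered within their group, and bars are the mean ± SD of 5 PRC2 wildtype and 3 PRC2 loss tumors. The 3 PRC2 loss tumors sit above the 5 wildtype tumors for every gene, by the smallest margin for Kitl, and wildtype tumor 2 is the lowest of its group for the 7 mast cell genes.

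Among the proteases, Cma1 (chr14:55941451-55944675, minus strand, mm10) encodes the connective tissue mast cell chymase closest to human chymase in sequence. Its log2 level was 9.83, 6.63, 9.31, 10.17 and 9.60 in wildtype tumors 1 to 5 and 12.93, 12.86 and 13.97 in PRC2 loss tumors 1 to 3. Wildtype tumor 2 was far below the other wildtype tumors, PRC2 loss tumor 3 was the highest of all, and the groups did not overlap. The mean was 9.11 ± 1.42 (SD, n = 5) against 13.25 ± 0.62 (SD, n = 3), and the log2 difference was 4.14 (SE 0.754), or 17.7-fold (limma, adjusted p = 0.00414).

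Mcpt4 (chr14:56059629-56062313, minus strand) encodes another chymase of connective tissue mast cells, from the same gene cluster. Its levels were 10.26, 6.96, 9.38, 10.27 and 9.33 in the wildtype tumors and 12.42, 13.04 and 14.56 in the PRC2 loss tumors. The order of the tumors resembled that of Cma1, with wildtype tumor 2 again alone at the bottom and PRC2 loss tumor 3 at the top. The difference was 4.10 (SE 0.791), or 17.1-fold (limma, adjusted p = 0.00538).

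Cpa3 (chr3:20215620-20242181, minus strand) encodes carboxypeptidase A3, which trims peptides and is stored with chymase in the granule. It stood at 9.88, 7.09, 9.96, 10.81 and 10.12 in the wildtype tumors and at 13.19, 12.94 and 13.86 in the PRC2 loss tumors. The PRC2 loss tumors were close to each other, and their lowest was above the highest wildtype tumor. Means of 9.57 ± 1.44 (SD, n = 5) and 13.33 ± 0.48 (SD, n = 3) gave a difference of 3.76 (SE 0.748), or 13.5-fold (limma, adjusted p = 0.00610).

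Tpsb2 (chr17:25366305-25369098, plus strand) encodes a tryptase, a serine protease held in the granule on heparin. Its levels were 10.50, 7.74, 10.41, 11.18 and 10.87 in the wildtype tumors and 13.47, 13.32 and 14.39 in the PRC2 loss tumors. They ran in parallel with Cpa3 across tumors. The difference was 3.59 (SE 0.728), or 12.1-fold (limma, adjusted p = 0.00658). Chymase and tryptase genes have close copies that can share reads, so the split of reads between Mcpt4 and its neighbours, and between Tpsb2 and Tpsab1, is uncertain.

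The receptor chains rose alongside the proteases. Fcer1a (chr1:173221284-173227214, minus strand) encodes the IgE-binding alpha chain of the high-affinity receptor, which basophils share with mast cells. It was at 6.30, 4.23, 6.35, 7.83 and 7.59 in the wildtype tumors and at 10.70, 10.22 and 11.18 in the PRC2 loss tumors. Wildtype tumor 2 was lowest and the groups were well apart. The difference of 4.24 (SE 0.757), or 18.9-fold, was the largest of the 9 (limma, adjusted p = 0.00383).

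Ms4a2 (chr19:11615523-11623719, minus strand) encodes the beta chain. Its levels were 5.81, 3.29, 6.82, 7.66 and 7.37 in the wildtype tumors and 9.28, 9.36 and 11.22 in the PRC2 loss tumors. PRC2 loss tumors 1 and 2 were nearly level and PRC2 loss tumor 3 stood above them. The difference was 3.76 (SE 0.992), or 13.6-fold (limma, adjusted p = 0.0194). Without PRC2 loss tumor 3 the adjusted p became 0.0835, and with tumors of one animal number averaged it was 0.0653.

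Hdc (chr2:126593667-126619299, minus strand) encodes histidine decarboxylase, the enzyme that makes histamine. It was at 6.96, 5.80, 6.94, 7.07 and 8.23 in the wildtype tumors and at 11.40, 9.08 and 10.51 in the PRC2 loss tumors. Here the order differed from that of the proteases, since PRC2 loss tumor 1 was the highest and wildtype tumor 5 led its group. The difference was 3.33 (SE 0.621), or 10.1-fold (limma, adjusted p = 0.00462). Hdc was the one gene of the 9 that still passed when both tumors of animal number 7 were left out (adjusted p = 0.0317), a fit in which a single PRC2 loss tumor is assumed to vary like the wildtype tumors.

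The tumors kept much the same order across the 7 mast cell genes. In the wildtype group, tumor 2 was lowest for 7 of 7 genes and tumor 4 highest for 6. In the PRC2 loss group, tumor 3 was highest for 6 of 7 and tumor 2 lowest for 5. The mean of the 7 log2 values was 8.51, 5.96, 8.45, 9.29 and 9.01 in wildtype tumors 1 to 5, and 11.91, 11.55 and 12.81 in the PRC2 loss tumors. Wildtype tumors 1 and 2, which share animal number 8, thus differed from each other by about as much as wildtype tumor 4 and the lowest PRC2 loss tumor did. Pearson's r with Cpa3 over the 8 tumors was 0.998 for Tpsb2, 0.995 for Cma1, 0.987 for Fcer1a, 0.977 for Ms4a2, 0.974 for Mcpt4 and 0.904 for Hdc, a description in which the separation of the 2 groups is included. Without wildtype tumor 2 all 7 still passed, with a median difference of 3.14.

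Kit and Kitl moved by less. Kit (chr5:75574916-75656722, plus strand) encodes the receptor tyrosine kinase for stem cell factor and is also carried by melanocytes, interstitial cells of Cajal and blood progenitors. Its log2 level was 9.52, 10.00, 9.37, 9.58 and 10.22 in the wildtype tumors and 10.97, 10.64 and 11.98 in the PRC2 loss tumors. Wildtype tumor 2, lowest for the granule genes, was second highest of its group for Kit. Means of 9.74 ± 0.36 (SD, n = 5) and 11.20 ± 0.70 (SD, n = 3) gave a difference of 1.46 (SE 0.320), or 2.76-fold (limma, adjusted p = 0.00896). Pearson's r of Kit with Cpa3 over the 8 tumors was 0.732, the lowest of the members.

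Kitl (chr10:100015630-100100416, plus strand) encodes stem cell factor, which is made by fibroblasts, endothelial cells and Schwann cells in membrane-bound and shed forms. It was at 11.95, 11.70, 12.32, 12.54 and 12.72 in the wildtype tumors and at 12.89, 12.99 and 13.40 in the PRC2 loss tumors. The groups were separated by a gap of only 0.17, between wildtype tumor 5 and PRC2 loss tumor 1. The difference was 0.85 (SE 0.248), or 1.80-fold (limma, adjusted p = 0.0283). The Kitl call depended on the tumors entered: the adjusted p was 0.0518, 0.0672 or 0.108 without PRC2 loss tumor 1, 2 or 3, 0.0575 without wildtype tumor 1, and 0.143 with tumors of one animal number averaged.

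With tumors of one animal number averaged to 1 value, leaving 3 wildtype against 2 PRC2 loss values, 7 of the 9 genes passed and Kitl and Ms4a2 did not, against 10.16% of all genes higher in that fit. Leaving out each tumor in turn kept 7 to 9 of the 9 called, in fits where 2555 to 3413 of all genes were called higher. PRC2 loss tumor 3 was the one whose omission cost most, leaving 7.

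Within-tumor log2 ratios show whether 2 genes differed between the groups by unequal amounts, and gene length cancels in the comparison. Kit minus Cpa3 was -0.36, 2.91, -0.59, -1.23 and 0.10 in the wildtype tumors and -2.22, -2.29 and -1.87 in the PRC2 loss tumors. All PRC2 loss tumors were below all wildtype tumors, and wildtype tumor 2 stood out as the highest. The group difference was -2.30, with p = 0.0536 in an exact two-sided permutation test over the 56 splits and 0.107 after Benjamini-Hochberg adjustment over the 4 ratios examined. Mcpt4 minus Cma1, the 2 chymases, differed by -0.04 (exact permutation p = 0.911, adjusted 0.911), and the sign of this small difference depended on the tumors entered. Fcer1a minus Ms4a2, the 2 receptor chains, differed by 0.48 (exact permutation p = 0.339, adjusted 0.452). None of the ratios passed after adjustment, which does not show that the genes changed equally.

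The ratio of Cpa3 to Ptprc, the leukocyte surface phosphatase CD45, sets the granule gene against blood cells in general. It was -2.89, -6.48, -2.02, -1.50 and -1.44 in the wildtype tumors and 2.91, 1.45 and 2.48 in the PRC2 loss tumors. Every PRC2 loss tumor was above every wildtype tumor. The sign of the ratio within a tumor cannot be read, since gene length cancels only in the comparison of groups. The difference of 5.15 had the smallest p that this design allows, 0.0179 in the exact two-sided permutation test, and 0.0714 after adjustment over the 4 ratios. Over all genes, limma called 16.04% higher and 19.64% lower in PRC2 loss tumors. Over 6 pan leukocyte genes, it called 0 higher and 4 lower (0 and 5 at an unadjusted p below 0.05), with a median difference of -1.42. Their summed level, the log2 of the summed linear values, was 14.48 to 16.10 in the wildtype and 13.02 to 14.19 in the PRC2 loss tumors. Lcp1, an actin bundling protein of leukocytes, fell by 1.63 (adjusted p = 0.0200 by limma), Cd53, a tetraspanin, fell by 1.46 (0.0113), and Laptm5, a lysosomal membrane protein, fell by 0.91 (0.0437). These leukocyte calls were unstable: without PRC2 loss tumor 1 the count was 0 of 6, without wildtype tumor 1, 2 or 4 or PRC2 loss tumor 2 or 3 it was 2, and with centring on housekeeping genes it was 0.

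**Figure D2:**
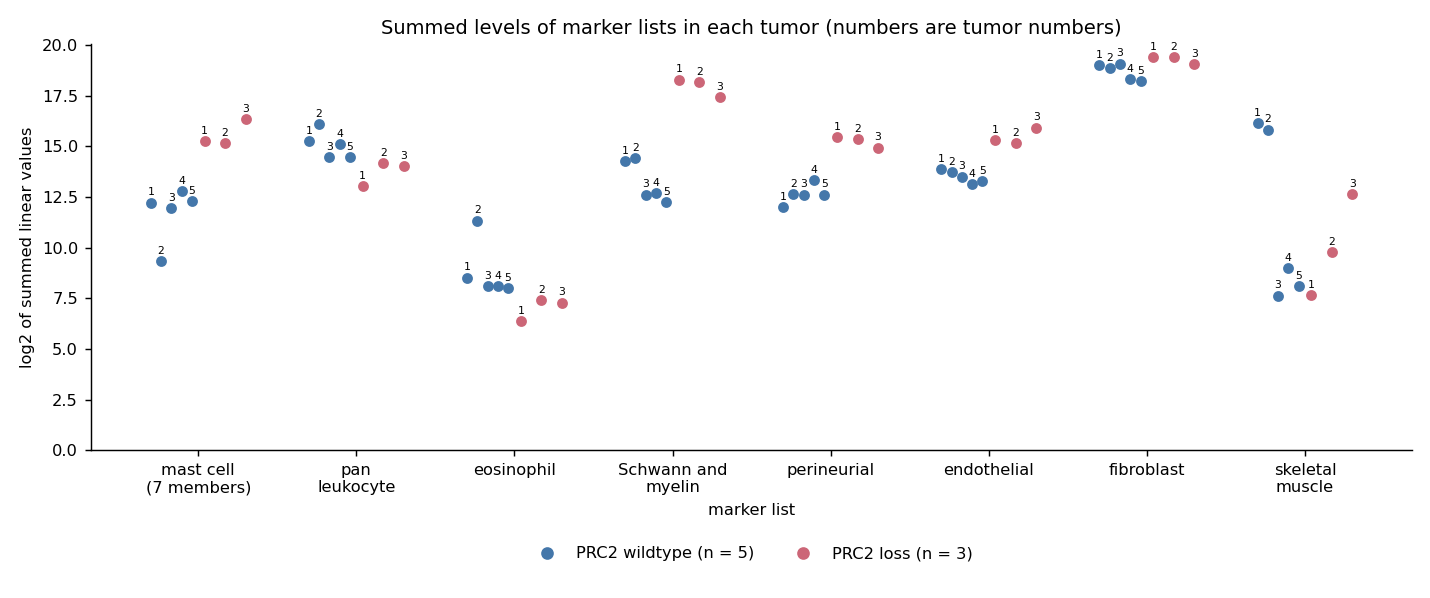
Summed level of 8 marker lists (x axis) in each tumor, as log2 of the summed linear values (y axis); points are tumors, numbered within their group, in blue for 5 PRC2 wildtype and red for 3 PRC2 loss tumors. The mast cell sum was 9.35 to 12.79 in wildtype and 15.15 to 16.34 in PRC2 loss tumors, whereas the pan leukocyte sum was higher in wildtype tumors.

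A further 21 genes linked to mast cells, beyond the 7 above, were less uniform. Of these, 9 were called higher, 1 lower and 11 not, with a median difference of 1.39. Among all genes, 16.04% were called higher and 19.64% lower. In 11 of the 21 every PRC2 loss tumor was above every wildtype tumor, against 16.91% of all genes. In 2 of the 21 the reverse held, against 21.43%. Without PRC2 loss tumor 3, 3 were called higher of the 20 that could be tested, while the median difference was 1.16. In that fit 2578 of all 20604 genes were called higher. With tumors of one animal number averaged 2 of the 21 were called higher, against 10.16% of all genes. With centring on housekeeping genes 14 were called higher, in a fit where 7582 of all 20807 genes were.

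Ctsg, a protease of the chymase cluster also made by neutrophil precursors, was at 1.63, 1.18, 0, 2.80 and 0 in the wildtype tumors and at 4.06, 4.87 and 6.41 in the PRC2 loss tumors. It was low everywhere, but the groups did not overlap and the difference was 3.99 (limma, adjusted p = 0.00582). Slc18a2, the vesicular monoamine transporter that loads histamine into granules, was at 5.74, 4.12, 6.21, 6.81 and 7.54 against 9.07, 8.70 and 10.41. Its difference was 3.31 (SE 0.753), with an adjusted p of 0.0106 by limma, and 0.0507 without PRC2 loss tumor 3. Srgn, the serglycin core protein that holds proteases in the granule and is made by many blood cells, differed by 1.40 (adjusted p = 0.0158 by limma, and 0.0573 and 0.0561 without PRC2 loss tumor 2 and 3).

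Mrgprb2, the receptor through which cationic peptides and drugs activate connective tissue mast cells without IgE, was at 5.56, 3.11, 6.56, 7.14 and 7.18 in the wildtype tumors and at 9.13, 9.41 and 11.01 in the PRC2 loss tumors. The groups were apart and wildtype tumor 2 was once more the lowest. Its difference was 3.93, or 15.3-fold (limma, adjusted p = 0.0135), and its neighbour Mrgprb1 differed by 3.91 (adjusted p = 0.0130). Without PRC2 loss tumor 3 the adjusted p was 0.0623 for Mrgprb2 and 0.0603 for Mrgprb1. These receptors are close copies, so how reads divide among them is uncertain. Rgs13, a regulator that dampens G protein signals in mast cells, was at 3.11, 2.56, 4.55, 4.38 and 3.74 against 6.37, 5.70 and 6.62, a difference of 2.56 (limma, adjusted p = 0.0101).

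The second tryptase gene, Tpsab1, was at 6.65, 4.00, 7.21, 8.11 and 7.97 in the wildtype tumors and at 8.75, 9.42 and 11.28 in the PRC2 loss tumors. The groups did not overlap, but the call was fragile: the difference of 3.03 (SE 0.976) had an adjusted p of 0.0413 by limma, and of 0.0587 to 0.160 without wildtype tumor 1 or 3 or any one PRC2 loss tumor. Cyp11a1, a steroid-forming enzyme found in mast cells, differed by 3.56 (adjusted p = 0.0122), and Slc45a3, a transporter, by 1.88 (adjusted p = 0.0142, and 0.0557 without PRC2 loss tumor 3). The transcription factor genes Gata2, which differed by 0.77 (adjusted p = 0.0870), and Mitf, by 0.27 (0.454), did not pass by limma, nor did Il1rl1, the IL-33 receptor, by 0.22 (0.763). With housekeeping centring Gata2 (1.35, limma adjusted p = 0.00491) and Mitf (0.85, 0.0308) did pass, as did 7582 of all 20807 genes in this direction.

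Mast cell proteases did not all go one way. Mcpt2, a chymase of mucosal mast cells, was at 3.96, 2.56, 9.76, 9.47 and 8.70 in wildtype tumors 1 to 5 and at 1.17, 0.87 and 1.62 in the PRC2 loss tumors. Wildtype tumors 3, 4 and 5, of animal numbers 9 and 11, were high, wildtype tumors 1 and 2, of animal number 8, were low, and all 3 PRC2 loss tumors were below them. The difference was -5.67 (SE 1.74), with an adjusted p of 0.0343 by limma. The call was lost without any one of wildtype tumors 3, 4 and 5 and PRC2 loss tumors 1, 2 and 3, with adjusted p from 0.0644 to 0.102, and without animal number 9 (0.113). Mcpt1, the other mucosal chymase, showed a like pattern at lower levels, at 0, 0, 2.45, 4.38 and 3.24 against 0, 0 and 0.33, and did not pass (difference -1.90, limma adjusted p = 0.179). Without animal number 8 the Mcpt1 difference was -3.24 and it was called lower (adjusted p = 0.00465). Mcpt9 was listed at 0 in every tumor except PRC2 loss tumor 3, at 1.09.

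**Figure D3:**
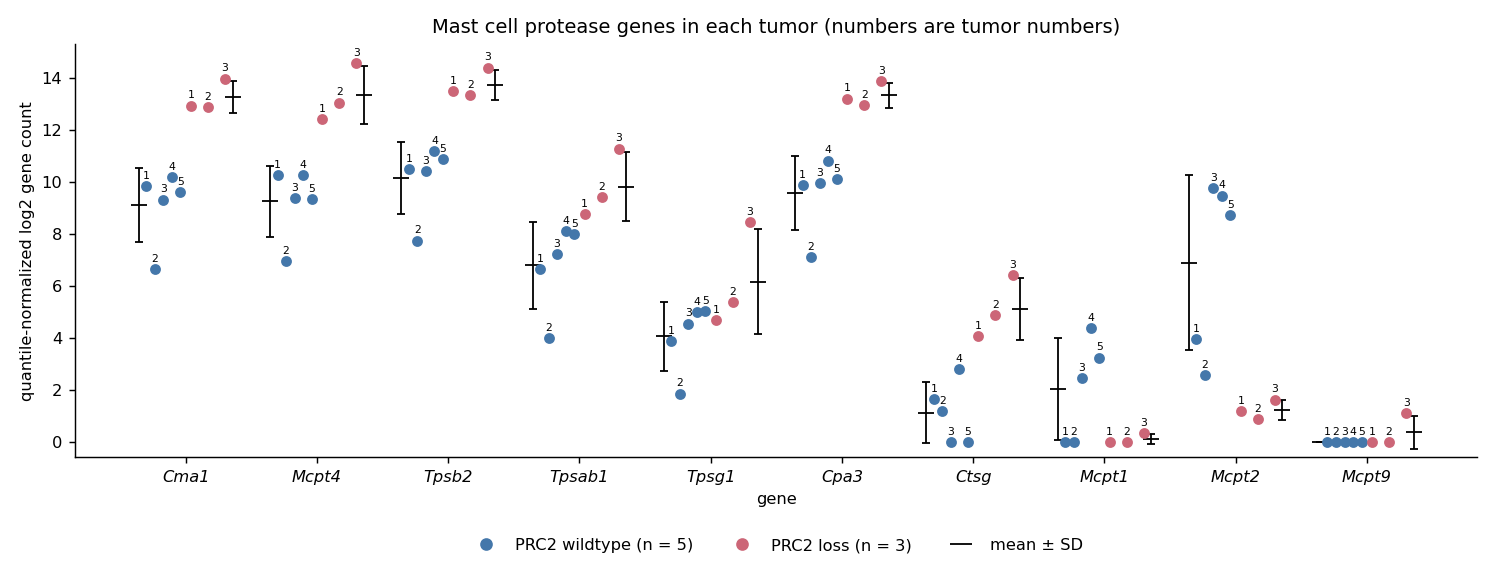
Quantile-normalized log2 gene count (y axis) of 10 mast cell protease genes (x axis) in each tumor, with the mean ± SD of 5 PRC2 wildtype (blue) and 3 PRC2 loss (red) tumors. Cma1, Mcpt4, Tpsb2, Tpsab1, Cpa3 and Ctsg are higher in PRC2 loss tumors without overlap. Tpsg1 overlaps between the groups and did not pass (limma, adjusted p = 0.149). Mcpt2 stands at 8.70 to 9.76 in wildtype tumors 3 to 5 and at 0.87 to 1.62 in PRC2 loss tumors.

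**Figure D4:**
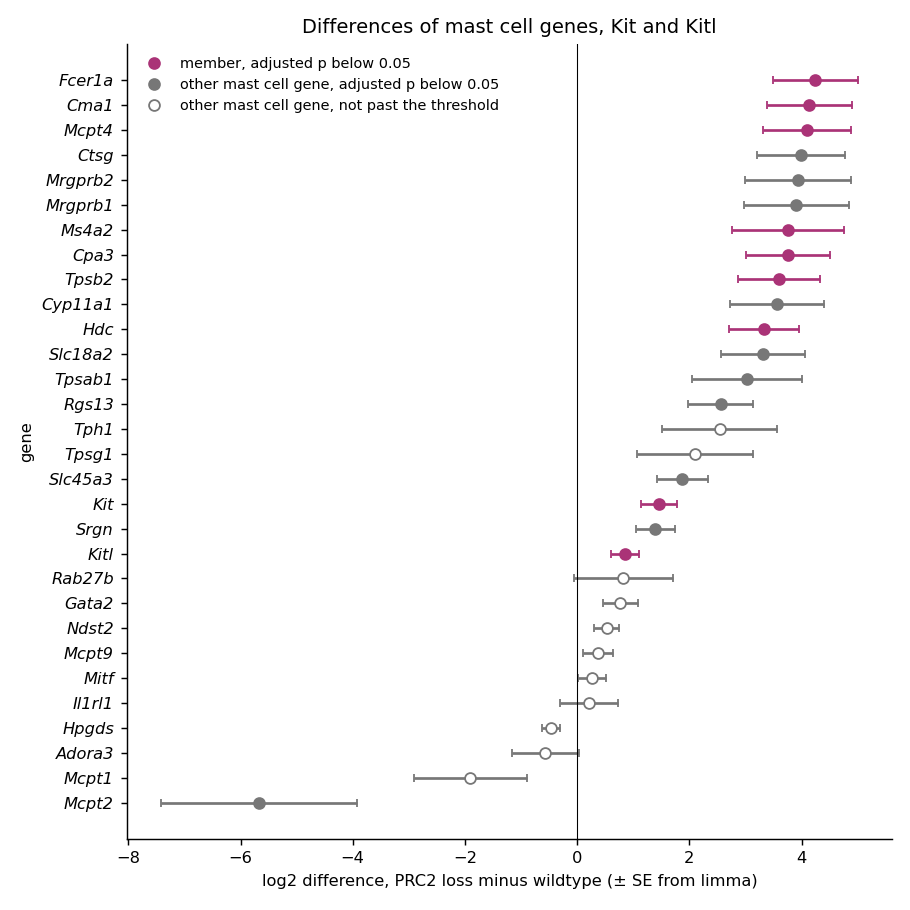
Log2 difference between PRC2 loss and wildtype tumors (x axis, ± SE from limma) for the 9 genes (purple) and 21 other mast cell genes (grey; open circles did not pass the threshold), ordered by difference (y axis). The 7 mast cell members lie between 3.33 and 4.24, Kit and Kitl at 1.46 and 0.85, and Mcpt2 at -5.67.

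Other granulocytes share part of this gene set. Of 6 basophil genes, 0 were higher by limma, also at an unadjusted p below 0.05, and 1 was lower. The shares over all genes were 16.04% higher and 19.64% lower. The basophil protease Mcpt8 was at 2.05 in wildtype tumor 1, at 0 in the other wildtype tumors, and at 1.17, 1.18 and 2.45 in the PRC2 loss tumors. Prss34, also a basophil protease, was at 3.96, 2.32, 2.80, 3.67 and 3.24 against 7.55, 3.40 and 4.31, with PRC2 loss tumor 1 alone well above the rest (limma, adjusted p = 0.142). Both genes overlapped between the groups, and Mcpt8 was low throughout. Mcpt8 was not called, but it was called higher without wildtype tumor 1 (difference 1.60, limma adjusted p = 0.0131), without animal number 8 (0.0213) and with housekeeping centring (0.0263). The median difference of the 6 basophil genes was 0.92. Il3ra, the alpha chain of the IL-3 receptor, fell by 1.53 (limma, adjusted p = 0.00647), whereas Cd200r3, carried by basophils and mast cells, differed by 1.33 and did not pass (0.232), nor did Itga2, the CD49b integrin chain, at -0.46 (0.202).

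Of 9 eosinophil genes, 2 were higher and 2 lower, against 16.04% and 19.64% of all genes. The median difference of the 9 was 0.90. Their summed level, in which Ear2 weighed most in the wildtype tumors, was nonetheless 7.99 to 11.34 in the wildtype and 6.39 to 7.41 in the PRC2 loss tumors. Ear2, an eosinophil-associated ribonuclease also made by macrophages, was at 8.16, 11.25, 7.07, 7.49 and 7.01 against 2.87, 5.35 and 5.24, highest in the wildtype tumor that was lowest for mast cell genes. It fell by 3.71 (limma, adjusted p = 0.0254), with 0.100 and 0.0526 without PRC2 loss tumor 1 and 3. Ccr3, the eotaxin receptor, fell by 2.89 (limma, adjusted p = 0.0178), with 0.0595 and 0.0632 without the same tumors. Epx, the eosinophil peroxidase, was at 1.63 in wildtype tumor 1, at 0 in the other wildtype tumors and at 1.17, 2.80 and 2.45 in the PRC2 loss tumors, and rose by 1.81 with overlapping groups (limma, adjusted p = 0.0256). The Epx call was lost without wildtype tumor 3, 4 or 5 or PRC2 loss tumor 2 or 3 (0.0521 to 0.0991). Ear6 was called higher as well, at 1.17 to 1.36 in the PRC2 loss tumors; both were close to the floor of the table.

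Genes that act below the IgE receptor did not follow the receptor chains. Of 13, 1 was higher and 4 lower, with a median difference of -0.30. Among all genes, 16.04% were called higher and 19.64% lower. Plcg1, the phospholipase that starts the calcium signal, was at 10.94, 10.78, 11.24, 11.03 and 11.15 in the wildtype tumors and at 12.29, 11.86 and 12.38 in the PRC2 loss tumors. It rose by 1.15, or 2.22-fold, with a limma adjusted p of 0.00125, and is expressed in most cells. Lcp2, the adaptor SLP-76, was at 10.71, 11.23, 10.01, 10.42 and 10.21 against 8.85, 9.10 and 9.25, and fell by 1.45 (adjusted p = 0.00449 by limma). The Rac activator Vav1 fell by 1.25 (adjusted p = 0.0112). The kinases Lyn, which fell by 0.98 (adjusted p = 0.0212), and Btk, which fell by 1.09 (0.0315), were called as well, and all 4 genes that fell are shared by leukocytes of many kinds. The Lyn call was lost without PRC2 loss tumor 1 or 3 (0.0763 and 0.0663) and the Btk call without wildtype tumor 1 or 4 or PRC2 loss tumor 1 or 2 (0.0582 to 0.113). Fcer1g, the signaling gamma chain used by several Fc receptors, was at 12.37, 12.81, 11.30, 12.14 and 11.37 against 12.27, 13.09 and 12.98 and did not pass (difference 0.78, adjusted p = 0.140), although it did without wildtype tumor 2 (0.0497).

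Centring each tumor on 15 housekeeping genes shifted the median difference of all genes from -0.12 to 0.46, and 9 of these 15 genes were lower in PRC2 loss tumors by limma. Under that scaling 7582 of all 20807 genes were called higher and 1597 lower. The IgE signaling genes gave 4 higher and 1 lower with a median of 0.28, so their direction as a list depended on the scaling. The 7 mast cell genes stayed higher with a median of 4.34.

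Of 6 genes that handle or sense histamine, 1 was higher and 1 lower, against 16.04% and 19.64% of all genes. Hrh2, the receptor that drives gastric acid and dampens leukocytes, was at 7.40, 8.47, 7.34, 7.87 and 7.24 in the wildtype tumors and at 5.03, 5.97 and 6.19 in the PRC2 loss tumors, and fell by 1.93 (limma, adjusted p = 0.00787). Hrh4, the receptor by which histamine attracts mast cells and eosinophils, was at 1.63, 2.56, 1.95, 2.80 and 2.85 against 3.59, 3.78 and 4.38. These are low levels, and the rise of 1.56 (limma, adjusted p = 0.0239) was lost without wildtype tumor 3 or PRC2 loss tumor 2 or 3 (0.0521, 0.0553 and 0.0761). Hnmt, which inactivates histamine by methylation, differed by 0.28 and did not pass (0.459).

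Of 16 genes that carry or restrain the Kit signal, 1 was higher and 3 lower, with a median difference of -0.27. These counts stand beside 16.04% of all genes called higher and 19.64% called lower. Pik3r1, the p85 alpha subunit of PI3 kinase that docks on activated Kit and many other receptors, was at 12.53, 12.60, 12.59, 12.98 and 11.80 in the wildtype tumors and at 14.77, 14.50 and 15.10 in the PRC2 loss tumors. The rise of 2.29, or 4.88-fold, had a limma adjusted p of 0.000621. Socs1, an inhibitor of cytokine signaling, was at 8.33, 8.92, 8.41, 8.78 and 8.20 against 5.94, 7.09 and 6.52 and fell by 2.01 (limma, adjusted p = 0.00213). The adaptor Grb2 fell by 0.66 (limma, adjusted p = 0.00889), a call that ended with housekeeping centring (0.678), under which the list gave 5 higher and 1 lower. All of these genes are expressed far beyond mast cells.

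The ligand is released from the membrane by proteases. Of 3 that are known to cleave it or to promote its release, Adam33 was at 7.77, 8.21, 7.37, 5.98 and 6.04 in the wildtype tumors and at 11.83, 11.55 and 12.54 in the PRC2 loss tumors. It rose by 4.90, or 29.8-fold (limma, adjusted p = 0.000635), and this held without any one tumor. Mmp9, the gelatinase that frees stem cell factor in bone marrow, was at 11.42, 11.87, 13.05, 12.92 and 10.32 against 7.12, 9.25 and 10.20. It fell by 3.06 (limma, adjusted p = 0.0192), a call lost without PRC2 loss tumor 1 (0.0694). Adam17 fell by 0.51 (adjusted p = 0.0237), which was lost without PRC2 loss tumor 2 or 3 (0.0582 and 0.0660) and turned to 0.074 with housekeeping centring.

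Attractants and alarmins that act on mast cells were measured as well. Cxcl12, which attracts mast cell progenitors through Cxcr4, was at 14.53, 14.68, 14.46, 12.68 and 13.74 in the wildtype tumors and at 13.56, 14.67 and 14.78 in the PRC2 loss tumors. The groups overlapped, and the difference of 0.32 did not pass (limma, adjusted p = 0.636). The alarmin Il33, which activates mast cells through Il1rl1, was at 12.31, 12.50, 10.86, 9.39 and 9.83 in the wildtype tumors and averaged 11.48 ± 0.43 (SD, n = 3) in the PRC2 loss tumors. Wildtype tumors 1 and 2 were the highest of all, and the difference of 0.50 did not pass (limma, adjusted p = 0.612). Without animal number 8, that of these 2 tumors, Il33 was called higher, with a difference of 1.45 (adjusted p = 0.0296).

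Of 6 genes for leukotriene and prostaglandin synthesis, 1 was higher and 3 lower, against 16.04% and 19.64% of all genes. Ltc4s, which makes leukotriene C4 in mast cells, eosinophils and macrophages, was at 8.96, 8.68, 9.07, 9.64 and 8.37 in the wildtype tumors and at 7.49, 7.39 and 6.85 in the PRC2 loss tumors, and fell by 1.70 (limma, adjusted p = 0.00414). Ptgs2, the inducible cyclooxygenase, was at 9.88, 6.40, 9.86, 10.37 and 11.69 against 4.24, 5.20 and 4.29, and fell by 5.06 (limma, adjusted p = 0.00646). The phospholipase Pla2g4a fell by 1.17 (adjusted p = 0.0151, and 0.0627 and 0.0646 without PRC2 loss tumor 1 and 3). Ptgs1, the constitutive cyclooxygenase that connective tissue mast cells use, was at 9.28, 10.36, 9.45, 9.15 and 9.32 against 10.36, 10.14 and 10.80. Its rise of 0.92 (limma, adjusted p = 0.0373) came with overlapping groups and was lost without any one tumor except wildtype tumor 2 (0.0559 to 0.138).

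Cells other than mast cells can hold Kit. Beside the counts below, 16.04% of all genes were called higher and 19.64% lower. Of 7 melanocyte genes 1 was called higher, and their summed level, 5.16 to 6.06 in the wildtype and 5.05 to 6.02 in the PRC2 loss tumors, was low in both groups, with Tyr and Oca2 at 0 in all wildtype tumors and in 2 of the 3 PRC2 loss tumors. Of 4 genes of interstitial cells of Cajal 1 was higher and 1 lower, and of 5 hematopoietic progenitor genes 0 were higher by limma (1 at an unadjusted p below 0.05) and 2 lower. Their part in the Kit result was not tested beyond these values.

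Marker genes of several cell types that make stem cell factor or line vessels and nerves differed between the groups. In bulk RNA, a change in cell number and a change in level per cell cannot be told apart. Among all genes, 16.04% were called higher and 19.64% lower. Of 8 Schwann and myelin genes 7 were higher, with summed levels of 12.24 to 14.43 in the wildtype and 17.43 to 18.29 in the PRC2 loss tumors. Of 5 perineurial genes 4 were higher, with sums of 12.01 to 13.32 against 14.93 to 15.44. Of 8 endothelial genes 7 were higher, with sums of 13.13 to 13.87 against 15.15 to 15.93. Fibroblast genes, of which 2 of 7 were higher, had a median difference of -0.0008 and overlapping sums, 18.20 to 19.09 against 19.06 to 19.40. Leaving out each tumor in turn kept 6 to 8 of the Schwann and myelin, 7 to 8 of the endothelial and 2 to 4 of the perineurial genes called, the 2 being without PRC2 loss tumor 3. Of 8 skeletal muscle genes 0 were called by limma and 0 had an unadjusted p below 0.05, but they summed to 15.82 and 16.14 in wildtype tumors 1 and 2 against 7.64 to 8.99 in the other wildtype tumors and 7.68 to 12.66 in the PRC2 loss tumors. Without animal number 8, that of wildtype tumors 1 and 2, all 7 mast cell genes were still called, with a median difference of 3.03. The part of nerve, vessel and muscle content in the mast cell, Kit and Kitl results was not tested otherwise.

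Outside the listed genes, the 8 with the highest Pearson's r with Cpa3 over the 8 tumors were Atp8b5 (0.987), Ptprg (0.978), Rgp1 (0.978), Mrgprx2 (0.974), Kiz (0.965), Tm7sf2 (0.964), Cttnbp2 (0.963) and Mmp8 (0.963). They were taken from genes with a mean log2 level of at least 4, with predicted genes passed over. Any gene that separates the groups gains in r from that alone. Atp8b5, a phospholipid flippase subunit, was at 5.51, 3.62, 6.04, 6.80 and 6.58 in the wildtype tumors and at 9.14, 8.34 and 10.05 in the PRC2 loss tumors. It was lowest in wildtype tumor 2 and highest in PRC2 loss tumor 3, as the mast cell genes were, and differed 11.1-fold (limma, adjusted p = 0.00825). Mrgprx2, a close copy of Mrgprb2 in this table, differed 15.5-fold, Mmp8, a collagenase best known from neutrophils, 10.9-fold, and Cttnbp2 9.14-fold. Ptprg differed 3.01-fold, Tm7sf2 1.85-fold, Kiz 1.52-fold and Rgp1 1.49-fold, so a like order of tumors went with very different sizes of change.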

How the data were processed

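RNA was extracted with Trizol from homogenized tumors and poly-A TruSeq libraries were made, per the labels' protocols. Trim Galore, STAR 2.6, Partek 7.0 and the build mm10 are named in the submitters' processing notes. Not given in the sources used here are the order of steps, annotation, counting, strand use and the offset before the log. Gene counts were deposited by the authors as quantile-normalized log2 values for 20943 symbols, which hold no library totals, so a fold is 2 raised to a log2 difference and understates the change of low genes.

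Genes constant over the 8 tumors (136) were left out and 20807 were fitted in limma 3.58.1 (R 4.3.3) with a variance trend and a two-sided test, adjusted over all of them by Benjamini-Hochberg, with a threshold of 0.05; 9578 had an unadjusted p below 0.05. Replicates are the tumors the labels number within a group. The procedure was run on simulated data with independent tumors, in which only genes at or above the median mean were shifted. That run does not cover tumors that share an animal number, or lower genes such as Fcer1a, Ms4a2 and Hdc. Members and lists were chosen with earlier results of these data known. The text names every member, up to 3 genes of each list by smallest p, then by highest mean, any single gene moving against its list, and the 8 genes most like Cpa3. Genes chosen by this rule for melanocytes, interstitial cells of Cajal, progenitors, fibroblasts and muscle are given by counts or sums, and other list genes were named after their values were seen. Some listed genes are not reported here, though they stay in the fit and in the count of related genes. Gene positions came from GENCODE M21 (mm10), promoter sequences from RefSeq. Alternatives were other filters, pseudocounts of 1 and 16, variance priors, weights, scalings, blocks, and tumors left out.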

Additional observations from a re-analysis of the deposited data

Results flagged for a closer look

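Of 81 genes checked, 11 had 1 wildtype tumor that stood apart from the other 4 by Dixon's criterion, which chance meets in about 1 in 20 groups. These genes are correlated, so they are not separate events. Wildtype tumor 2 was low for Cma1 (6.63, next lowest 9.31), Mcpt4 (6.96, next 9.33), Cpa3 (7.09, next 9.88), Tpsb2 (7.74, next 10.41), Mrgprb1 (4.45, next 7.70) and Tph1 (2.87, next 6.33). The same tumor was high for Ear2 (11.25, next highest 8.16) and Ptgs1 (10.36, next 9.45). Wildtype tumor 1 was the only wildtype tumor above 0 for Mcpt8 (2.05), Epx (1.63) and Ear6 (0.40). In these genes the other 4 were tied at 0, so any value above 0 met the criterion. The rate of 1 in 20 does not apply to them, and the count of 11 cannot be set against it. With wildtype tumor 2 left out, all 9 members were still called.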

How the results depend on the processing

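Under 22 alternatives the 9 differences kept their sign (Cpa3 3.03 to 4.35, Kit 1.07 to 2.05, Kitl 0.57 to 1.43). Of the 9 members, 7 to 9 were called with each tumor left out, 7 with animal numbers averaged and 8 with animal number as a random block. Without animal number 8 or 9, 8 were called and Kitl was lost (limma adjusted p = 0.0504 and 0.0548). Over all genes, 2555 to 3413 were called higher with each tumor left out, 2113 with animal numbers averaged and 2701 with the random block. Without animal number 8 or 9 it was 3430 and 2470. Leaving out low genes kept 6 of 9 in the fit, all 6 called. Without animal number 7, which leaves 1 PRC2 loss tumor, 1 was called, Hdc. With the replicate block 7 were called, against 1129 of all 20807 genes higher, and Kit and Mcpt4 were lost (limma adjusted p = 0.0995 and 0.0600). That block joined tumors of the same replicate number across the groups, not tumors of the same animal number. Tumors so joined shared only a replicate number. The correlations of their deviations were -0.208, 0.146 and -0.0950 for replicates 1, 2 and 3. None is given for tumors that share an animal number.

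Called related genes numbered 64, and 35 with animal numbers averaged, 25 with the replicate block, 27 and 41 without animal numbers 7 and 9, and 41 to 67 with each tumor left out. Over all 20807 genes, 3337 were called higher and 4087 lower in the main fit. With animal numbers averaged it was 2113 and 2113, and with the replicate block 1129 and 774. Without animal number 9 it was 2470 and 2752 of 20606 genes. The counts of related genes thus fell along with those of all genes. They were not tested against all genes, so they show no change particular to related genes. Housekeeping centring gave 7582 genes higher and 1597 lower, against 3337 and 4087. Signs turned for Adam17 (0.074) and Itga2 (0.13) with housekeeping centring, Rab27b without animal number 8 (-0.22), Il33 with the replicate block (-0.41) and without animal number 9 (-0.067), and Cxcl12 with the replicate block (-0.22), without animal number 7 (-0.46) and without wildtype tumor 4 (-0.017, the range with each tumor left out reaching 0.71). Il1rl1 turned with animal numbers averaged (-0.047), array weights (-0.081), without animal numbers 7 (-0.29) and 8 (-0.24), and without PRC2 loss tumor 3 (-0.21, the range reaching 0.47) or wildtype tumor 2 (-0.15). The ratio Mcpt4 minus Cma1 was 0.12 without animal number 8 and -0.29 to 0.26 with each tumor left out. The cause of these changes was not tested. Depth is unknown, so what it limits cannot be stated.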
